A study of Mus musculus with 28 samples.

Results

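The RNA of the dendritic layer of hippocampal field CA1 was set against that of the dentate gyrus (DG), to ask how the dendritic field of pyramidal cells differs from that of granule cells. The comparison used 6 of the 24 libraries with a column in the deposited gene table, those named for CA1 dendrites (3 libraries) and for DG dendrites (3 libraries). Mice 492, 496 and 502 gave 1 library of each, so every CA1 library had a DG partner from the same brain. These were untreated males of strain Amigo2-GFP C57BL/6J, called Amigo2-EGFP in the protocol, aged 6 to 8 weeks and from separate litters. The reporter is a green fluorescent protein under control of Amigo2, a gene known for its expression in CA2, and both groups carried it. Stratum radiatum stood for CA1 dendrites and the molecular layer for DG dendrites, each captured by laser from fresh frozen 8 µm sections. About 20 capture caps of 5 sections were pooled per region, and 1 ng of total RNA with an RNA integrity number above 8.7 went into each library, which was amplified for 16 PCR cycles and read as 100 bp pairs. The CA1 and DG cell body layers of the same mice (3 libraries each, 5 ng of RNA) served for the difference between compartments.

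Pyramidal cells of CA1 receive Schaffer collateral input on dendrites in stratum radiatum, and granule cells receive perforant path input on dendrites in the molecular layer. Most mRNA of a neuron stays near its nucleus, and a subset, which includes mRNAs of postsynaptic scaffolds and kinases, is carried into dendrites and can be translated there. A captured layer is not made of dendrites alone. Astrocytes, oligodendrocytes, microglia, blood vessels, interneurons and axons lie between them, and in such bulk tissue fewer cells of a type and less RNA per cell cannot be told apart.

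The 6 libraries differed in ways that touched every result. The deposited values are log2 values of read estimates after a median normalization by the authors, and values are given on that log2 scale throughout, with differences taken as CA1 minus DG. On it the CA1 libraries of mice 492, 496 and 502 had medians of 7.56, 7.54 and 7.03 over the 24911 genes tested, against 7.05, 7.29 and 6.86 for DG. The CA1 libraries of mice 492 and 496 also held fewer genes with a value of at least log2(10), at 15947 and 16656, against 18893 in CA1 of mouse 502 and 18440 to 20480 in DG. Their summed normalized values were 98.7 and 82.3 M, against 57.4 M in CA1 of mouse 502 and 36.9 to 55.6 M in DG. RNAs of the mitochondrial genome took 43.3%, 32.0% and 32.4% of those sums in CA1 and 29.6% to 32.8% in DG. Of all 24 libraries of the study, 4 had under 60% of reads mapped and were remade. Repeat libraries are labelled for the DG dendrites of mice 492 and 502, and nothing in the labels or headers says if the table holds the first or the remade ones.

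Because of these shifts, the number of genes that differed and its split depended on the scaling. As deposited, 3143 of 24911 genes (12.6%) differed at an adjusted p below 0.05 in limma, and 81.8% of them were higher in CA1 dendrites: 2572 genes (10.3%) were higher and 571 (2.29%) lower. Quantile normalization gave 840 higher (3.37%) and 843 lower (3.38%). Under scaling to equal totals the split turned, with 468 higher and 1691 lower. The median difference of the genes tested moved with it, at 0.14 as deposited, -0.01 under quantile normalization and -0.48 under equal totals. Among 12584 genes with a mean of at least log2(100) over the 6 libraries, the median difference was 0.47 as deposited and -0.05 under quantile normalization. A difference of about that size in a single gene is therefore within what the scaling alone moved.

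**Figure D1:**
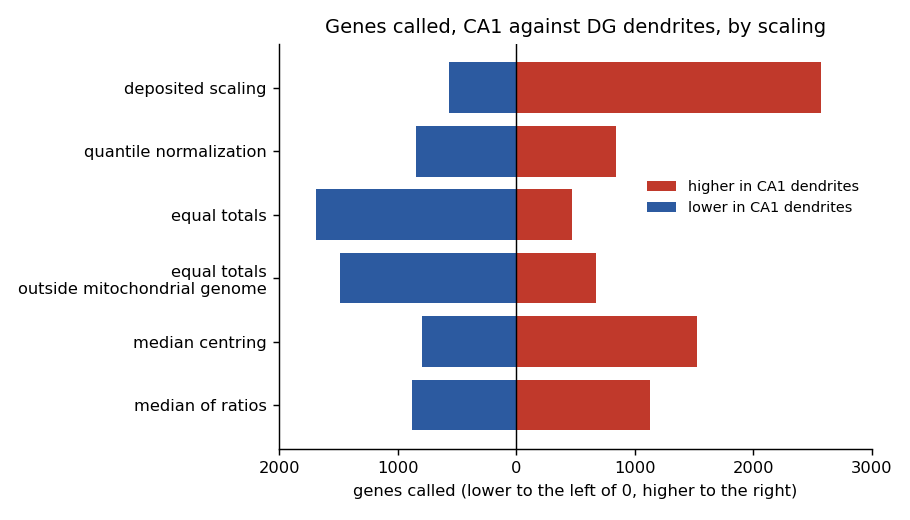
Genes called at an adjusted p below 0.05 in limma under 6 scalings of the same libraries, with genes higher in CA1 dendrites to the right of 0 and genes lower to the left. Higher genes make up 81.8% of the calls as deposited, 49.9% under quantile normalization and 21.7% under equal totals.

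For these reasons the genes and lists below rest on calls that had the same direction under the deposited scaling and 5 others (quantile, equal totals, equal totals outside the mitochondrial genome, median centring and median of ratios). There were 711 such genes (2.85%), 458 higher (1.84%) and 253 lower (1.02%) in CA1 dendrites. They were of different kinds. Of the 458 higher, 429 had a mean of at least log2(100), 457 had the same direction in each mouse, and 434 were past a difference of 1 in mouse 502 alone, whose CA1 library had the lowest median of the CA1 libraries. Of the 253 lower, 85 had such a mean, 109 were listed at 0 in the CA1 libraries of both mouse 492 and mouse 496, and 63 of these were listed at 0 in the CA1 library of mouse 502 too. These CA1 libraries of mice 492 and 496 had the fewest genes at log2(10) or more of the 6 libraries. At log2(100) or more they had the most, at 14016 and 14329, against 13193 in CA1 of mouse 502 and 12888 to 13639 in DG. Genes listed at 0 numbered 27200 and 25658 in them, 23898 in CA1 of mouse 502 and 24171 to 26684 in DG. The part of this in the lower calls was not tested. The spread behind the tests was estimated from all 24 libraries of the study. With the 6 libraries of the comparison alone 274 genes were called (265 higher and 9 lower), and 38 under quantile normalization (23 higher and 15 lower).

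The layer labels were checked first against genes known to mark the neurons of each field. Of 10 listed CA1 pyramidal markers, 9 were higher in CA1 dendrites (10.3% of genes were) and 6 were so under all 6 scalings (1.84% of genes were), with a list median of 2.91. Gene positions are from GENCODE M21 on the GRCm38 build. Mpped1 (chromosome 15, 83779467 to 83858494), a metallophosphoesterase gene enriched in CA1, had 14.01, 14.56 and 14.39 in the CA1 libraries of mice 492, 496 and 502, against 9.39, 10.60 and 10.33 in the DG libraries. The groups lay far apart, and the difference was 4.21 ± 0.263 (SE, limma adjusted p = 9.73e-11, higher in 3 of 3 mice). Wfs1 (chromosome 5, 36966104 to 36989205), which encodes the endoplasmic reticulum protein wolframin, had 12.85, 13.40 and 12.90 in CA1 dendrites and 10.06, 10.26 and 9.50 in DG dendrites. No DG library came near a CA1 library, and the difference was 3.11 ± 0.364 (SE, limma adjusted p = 2.21e-06). Pou3f1, a POU-domain transcription factor, differed by 4.59, Fibcd1, an acetyl-group binding membrane protein, by 3.89, and Spink8, a member of the Kazal-type protease inhibitor family, by 5.50. Lefty1, a TGF-beta family antagonist, was the listed marker without a call, at a difference of 0.01.

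Granule cell markers went the other way, and less evenly. Of 12 listed, 5 were lower in CA1 dendrites (2.29% of genes were), each under all 6 scalings (1.02% of genes were), and none was higher. The list median was -1.36 as deposited and -2.04 under quantile normalization. Prox1 (chromosome 1, 190118035 to 190170714), the homeobox factor of granule cell identity, had 12.92, 12.20 and 10.76 in CA1 dendrites, against 13.88, 13.76 and 13.28 in DG dendrites. Each CA1 library lay below each DG library, with mouse 492 closest to them and mouse 502 farthest (difference -1.68 ± 0.355, SE, limma adjusted p = 0.0023). C1ql2 (chromosome 1, 120340582 to 120343174), which encodes a secreted synapse organizer of mossy fibre synapses, had 9.93, 7.89 and 4.91 in CA1 dendrites and 10.93, 11.32 and 10.15 in DG dendrites. It showed the same order of the mice within CA1 and a difference of -3.22 ± 0.929 (SE, limma adjusted p = 0.0229), which was not called without mouse 496 (-3.12, adjusted p = 0.163) or without mouse 502 (-2.21, adjusted p = 0.11). Trpc6, a cation channel of the TRPC family, was lower by -2.55, and Glis3, a zinc finger transcription factor, by -2.76.

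Summed over the list, granule cell markers stood at 14.98, 14.66 and 13.49 in CA1 dendrites of mice 492, 496 and 502, against 15.75, 15.63 and 15.18 in DG dendrites. A single listed gene was at 0, in the CA1 library of mouse 492. CA1 markers summed to 15.33, 15.96 and 15.64 in CA1 dendrites and to 12.31, 12.61 and 12.25 in DG dendrites, with none at 0. The CA1 libraries of mice 492 and 496 thus held more of the granule cell markers than that of mouse 502, on the deposited scale on which their medians were also higher, and the part of this in the other results was not tested. Calb1, the calbindin gene, is known from granule cells and from superficial CA1 pyramidal cells. It had 11.72, 12.11 and 9.98 in CA1 dendrites and 10.43, 10.60 and 10.18 in DG dendrites, which overlap (difference 0.87 ± 0.429, SE, limma adjusted p = 0.2).

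**Figure D2:**
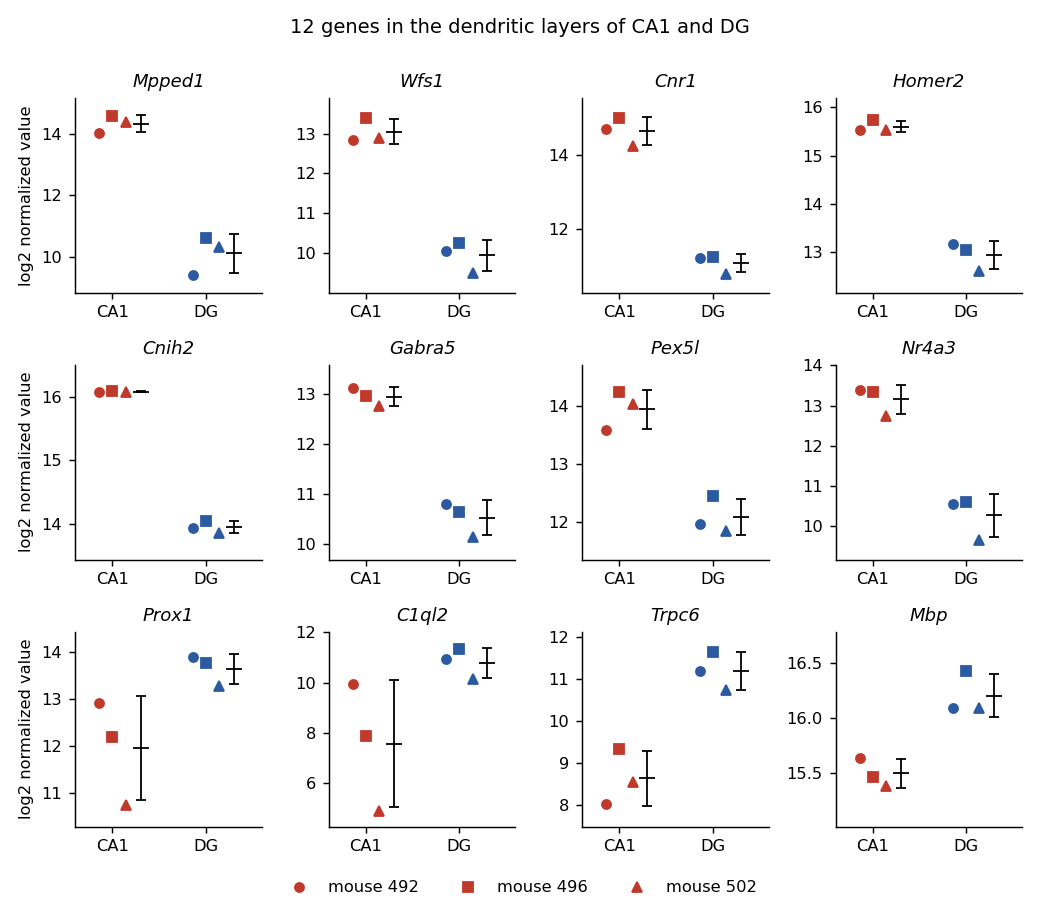
Values of 12 genes in each of the 6 libraries (log2 normalized value, a separate axis for each gene), with CA1 on the left and DG on the right, and the mean ± SD over 3 mice beside the points. The first 8 genes are higher in each CA1 library than in any DG library, and Prox1, C1ql2, Trpc6 and Mbp are lower.

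Markers of other cells of the layers differed in kind. Of 14 astrocyte markers, none was higher and Aqp4, the water channel of astrocyte endfeet, was the 1 lower (-0.65 ± 0.169, SE, limma adjusted p = 0.0117). Its call was lost without mouse 492 (-0.69), mouse 496 (-0.61) or mouse 502 (-0.65). The astrocyte sums overlapped, at 19.67 to 20.03 in CA1 and 19.71 to 20.14 in DG, with no marker at 0. The list's median was -0.09 as deposited and -0.80 under quantile normalization, where 11 of 14 were called lower, beside 3.38% of all genes. Of 12 microglia markers, 2 were higher as deposited and none under all 6 scalings. Among genes with a mean of at least log2(100), 19.7% were higher and 0.699% lower as deposited, and 3.41% higher under all 6 scalings. The microglia markers had medians of 0.73 as deposited, 0.10 under quantile normalization and -0.02 under equal totals. Their sums were 15.77 to 15.92 in CA1 and 14.97 to 15.31 in DG, with no marker at 0. Endothelial and mural markers, with 11 and 10 genes, had no calls as deposited. Their sums were 14.63 to 15.07 and 14.65 to 15.29 in CA1, against 14.77 to 15.17 and 14.91 to 15.05 in DG.

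Of 13 oligodendrocyte markers, 5 were called and 8 were not. Those called were each lower and so under all 6 scalings, and each of the 13 had a difference below 0. Of genes with a mean of at least log2(100), 0.699% were lower as deposited and 0.675% under all 6 scalings. Mbp (chromosome 18, 82475146 to 82585637), the myelin basic protein gene, had 15.64, 15.47 and 15.39 in CA1 dendrites and 16.09, 16.43 and 16.09 in DG dendrites. The groups did not overlap, and the difference of -0.71 ± 0.171 (SE, limma adjusted p = 0.00725) was small beside the neuronal markers. Mobp, another myelin protein, had a difference of -0.81, and Mag, a myelin glycoprotein that faces the axon, had -1.19. None of these 3 was called without mouse 496, at -0.57, -0.53 and -1.08 in the order Mbp, Mobp and Mag, or without mouse 502, at -0.71, -0.88 and -1.39.

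Interneuron genes were higher in CA1 dendrites, as far as they were called under the deposited scaling. Of 15 markers, 9 were higher as deposited and 4 under all 6 scalings. None was lower as deposited, but 1 was lower under each of the 5 other scalings. Of all genes 10.3% were higher as deposited and 1.84% under all 6 scalings, and of those with a mean of at least log2(100) 19.7% and 3.41%. The markers had a median of 1.63 as deposited, 1.21 under quantile normalization and 0.88 under equal totals. Cnr1 (chromosome 4, 33924593 to 33948831), the cannabinoid receptor of cholecystokinin interneurons, had 14.70, 14.98 and 14.23 in CA1 dendrites and 11.22, 11.25 and 10.81 in DG dendrites. Its difference was 3.55 ± 0.171 (SE, limma adjusted p = 2.53e-12), and 2.10 between the cell body layers. Cck, the cholecystokinin gene, is also expressed by pyramidal cells. It had 13.19, 13.12 and 12.75 in CA1 dendrites, against 9.68, 10.67 and 9.80 in DG dendrites (difference 2.98 ± 0.218, SE, limma adjusted p = 1.62e-09). Sst, the somatostatin gene, differed by 2.00, and Slc32a1, the vesicular GABA transporter, by 1.67. The GABA synthesis enzymes showed less. Gad1 had a difference of 0.43 without a call, and Gad2 one of 0.99 with a call as deposited but not under all 6 scalings. The list's sums were 16.60, 16.65 and 15.93 in CA1 and 15.07, 15.26 and 14.81 in DG, with no member at 0.

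The genes with the largest differences included several of other neuron types and of low level. Slc17a8 (chromosome 10, 89574020 to 89621253) encodes the vesicular glutamate transporter VGLUT3, known from cholecystokinin interneurons and serotonin neurons. It had 9.59, 10.58 and 9.80 in CA1 dendrites, against 3.61, 1.12 and 5.88 in DG dendrites (difference 6.45 ± 0.742, SE, limma adjusted p = 1.72e-06). Insm1, a zinc finger factor of neuronal and endocrine differentiation, had 8.62, 9.46 and 9.15 in CA1 dendrites and 5.68, 3.14 and 3.63 in DG dendrites (difference 4.93). The layers did not overlap for either gene. Ankrd63, an ankyrin repeat gene, differed by 5.23. Others were listed at 0 in part of the DG libraries, so that the size of their difference depends on those zeros. Neurog2, a proneural transcription factor, had 7.97, 8.05 and 7.89 in CA1 dendrites and 3.88, 0.00 and 3.08 in DG dendrites. Qrfpr, the receptor of the neuropeptide QRFP, had 8.08, 6.92 and 6.11 in CA1 dendrites, against 2.65, 0.00 and 0.00 in DG dendrites. Fbln7, a fibulin of the extracellular matrix, had 7.78, 8.11 and 6.31 in CA1 dendrites and 3.40, 0.00 and 3.28 in DG dendrites. The layers did not overlap for any of these. The antisense gene Zfp652os had 8.60, 8.66 and 6.95 in CA1 dendrites, against 3.71, 0.00 and 4.69 in DG dendrites. It was counted without a stated use of strand, so its reads and those of its sense partner cannot be told apart.

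Among the largest, 2 genes were listed at 0 in each DG library, so no fold is given. Tac2, the neurokinin B gene, had 9.28, 8.55 and 7.27 in CA1 dendrites, and Epyc, the proteoglycan epiphycan, had 8.03, 7.66 and 6.23. Chrna5, an accessory subunit of nicotinic acetylcholine receptors, had 8.19, 6.03 and 7.51 in CA1 dendrites and 0.57, 0.01 and 3.79 in DG dendrites. Its call was lost without mouse 492 (difference 4.87, adjusted p = 0.0946) or mouse 496 (5.67, adjusted p = 0.0646). So was that of Lipo2, a lipase family gene (difference 5.59), at 3.97 and 4.47. Lipo2 had 8.83, 7.85 and 5.18 in CA1 dendrites and 0.00, 0.01 and 5.08 in DG dendrites. Its difference in mouse 502 was 0.1, so its size depends on the DG libraries of mice 492 and 496 at or near 0. Fbln7 lost its call without mouse 496 (3.71), Neurog2 without mouse 502 (6.07), and Ankrd63 without mouse 492 (4.71) or mouse 502 (5.35).

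The largest lower genes were mostly near or at 0 in CA1. Plb1, a phospholipase B gene, was listed at 0 in each CA1 library and had 7.81, 7.76 and 6.04 in DG dendrites. Pla2g2f, a secreted phospholipase A2, had 0.00, 1.26 and 0.00 in CA1 dendrites and 6.59, 8.51 and 7.46 in DG dendrites (difference -7.10). Vwa5b1, a gene with a von Willebrand factor A domain, had 3.10, 7.57 and 1.57 in CA1 dendrites and 8.66, 10.94 and 9.08 in DG dendrites. In these 3 genes each mouse showed the direction, and the cell bodies differed the same way, with means of 2.27 in CA1 and 7.50 in DG for Plb1, 0.00 and 8.15 for Pla2g2f, and 2.34 and 7.09 for Vwa5b1. Vwa5b1 was not called without mouse 502 (-4.46, adjusted p = 0.0569).

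Cyp26b1 (chromosome 6, 84571414 to 84593908), the enzyme that clears retinoic acid, had 0.00, 0.00 and 3.74 in CA1 dendrites, against 5.93, 8.18 and 7.23 in DG dendrites (difference -5.87 ± 0.951, SE, limma adjusted p = 0.000143). Tdo2, the tryptophan dioxygenase known as a granule cell marker, had 0.00, 0.97 and 4.72 in CA1 dendrites and 7.08, 7.77 and 6.43 in DG dendrites, and was not called without mouse 496 (-4.40, adjusted p = 0.132). The antisense gene Lrp8os2 differed by -7.01, with the same limit on strand as above. The remaining 6 of the 12 largest lower genes turned on the CA1 libraries of mice 492 and 496. A2m (alpha-2-macroglobulin), Gja4 (the connexin 37 gene of arterial endothelium), Vegfc (a vascular growth factor), Slc25a24 (a mitochondrial carrier), Cmc4 (a mitochondrial protein) and Tap1 (the antigen peptide transporter) were each listed at 0 in CA1 of mice 492 and 496.

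In CA1 of mouse 502 the same genes were present. A2m had 7.17 there, against 7.50, 8.77 and 7.99 in DG dendrites, and Gja4 had 6.81, against 6.48, 7.72 and 8.16. With mouse 502 as the only CA1 library, the differences were -0.99 for A2m, -0.72 for Gja4, -1.99 for Vegfc, -1.33 for Slc25a24, -2.28 for Cmc4 and -1.94 for Tap1, and none was called. Without mouse 492 or without mouse 496, each of the 6 also lost its call, at -4.79 and -4.16 for A2m, -4.53 and -3.91 for Gja4, -4.42 and -4.38 for Vegfc, -4.31 and -4.10 for Slc25a24, -4.72 and -3.57 for Cmc4, and -4.18 and -4.23 for Tap1.

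**Figure D3:**
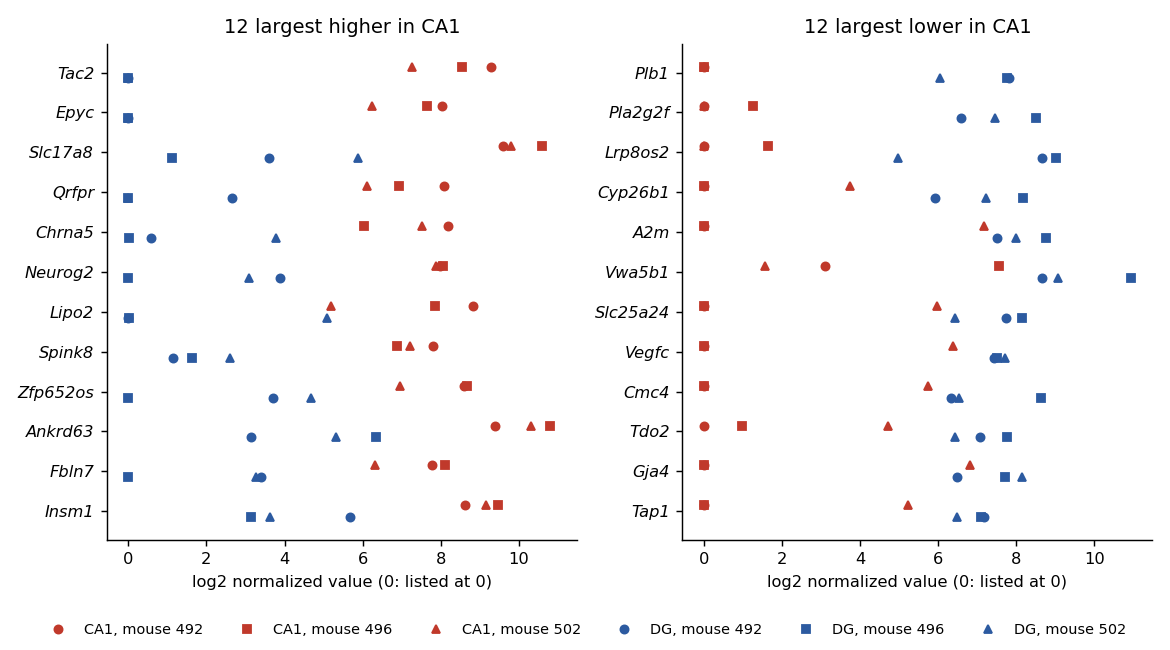
Values of the 12 largest higher genes (left) and the 12 largest lower genes (right) in each library, CA1 drawn above DG for each gene, on a log2 scale on which 0 means listed at 0. On the right, 7 of the 12 genes have circles and squares at 0 for CA1 of mice 492 and 496 while the CA1 triangle of mouse 502 lies between 3.74 and 7.17.

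Genes of the excitatory postsynapse were higher in CA1 dendrites as deposited, and their median differences were smaller under other scalings. Of 27 measured postsynaptic scaffold genes, 24 were higher as deposited and 12 under all 6 scalings, and none was lower. For comparison, 19.7% of genes with a mean of at least log2(100) were higher as deposited and 3.41% under all 6 scalings. The list median was 1.14 as deposited, 0.39 under quantile normalization and 0.40 under equal totals. The median of genes with a mean of at least log2(100) moved too, at 0.47, -0.05 and -0.27 in the same order. Homer2 (chromosome 7, 81600481 to 81707527), a scaffold that links metabotropic glutamate receptors to calcium stores, had 15.54, 15.74 and 15.53 in CA1 dendrites and 13.17, 13.05 and 12.62 in DG dendrites. It differed by 2.66 ± 0.190 (SE, limma adjusted p = 1.16e-09), and by 1.80 under quantile normalization. Shank1 (chromosome 7, 44310253 to 44360572), a master scaffold whose mRNA is known in dendrites, had 19.07, 19.19 and 18.72 in CA1 dendrites, against 17.11, 17.25 and 16.77 in DG dendrites (difference 1.95 ± 0.142, SE, limma adjusted p = 1.47e-09). Quantile normalization left a difference of 0.84. Psd3, an exchange factor for Arf6, differed by 1.66, and Sipa1l1, a Rap regulator of spines, had 16.36, 16.55 and 16.32 in CA1 dendrites and 14.99, 15.15 and 14.58 in DG dendrites. Of 18 mRNAs known from dendrites, 15 were higher and 7 under all 6 scalings. None of these mRNAs was lower as deposited, and 1 was lower under equal totals, with or without the mitochondrial genome. Their median was 1.06 as deposited and 0.36 under quantile normalization. Dgkz, a diacylglycerol kinase of spines, had 15.54, 15.90 and 15.71 in CA1 dendrites and 13.81, 13.98 and 13.62 in DG dendrites (difference 1.92), and Kif5a, a kinesin motor, differed by 1.45.

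AMPA receptor genes were led by an auxiliary subunit. Of 16 subunits and auxiliary proteins, 11 were higher and 6 under all 6 scalings, beside 19.7% and 3.41% of genes with a mean of at least log2(100). Cnih2 (chromosome 19, 5092868 to 5098521), the cornichon that slows AMPA receptor gating, had 16.07, 16.09 and 16.08 in CA1 dendrites and 13.93, 14.04 and 13.85 in DG dendrites. The CA1 libraries were almost equal, and the difference was 2.14 ± 0.127 (SE, limma adjusted p = 5.11e-11). It was 1.30 under quantile normalization and 1.17 between the cell body layers. The transmembrane regulators Cacng2 (stargazin) and Cacng8 differed by 1.45 and 1.36, and Shisa7, a further auxiliary protein, by 1.30. Of the pore-forming subunits, Gria3 (1.32) was called under all 6 scalings, and Gria1 (1.13), Gria2 (0.86) and Gria4 (0.99) as deposited but not under all 6 scalings.

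Other glutamate receptors moved less evenly. Of 7 NMDA receptor subunits, 3 were higher and 2 under all 6 scalings, and the list median changed sign with the scaling, at 0.25 as deposited, -0.26 under quantile normalization and -0.50 under equal totals. Grin1 (chromosome 2, 25291181 to 25319187), the obligatory subunit, had 13.63, 14.37 and 13.27 in CA1 dendrites and 11.75, 12.78 and 11.66 in DG dendrites (difference 1.69 ± 0.218, SE, limma adjusted p = 8.82e-06). Grin2a, an adult modulatory subunit, differed by 1.25. Grin2b, the subunit prominent in early development, was called at 1.54 as deposited and not under quantile normalization (0.71, adjusted p = 0.2), nor without mouse 492 (1.16, adjusted p = 0.0679). Of 7 kainate receptor genes 3 were higher as deposited, and of 7 metabotropic receptor genes 1, and none of these was called under all 6 scalings. For comparison with these 3 lists, 19.7% of genes with a mean of at least log2(100) were higher as deposited. Under all 6 scalings 3.41% were.

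Among 15 GABA-A receptor subunits, Gabra5 stood out by its call under all 6 scalings. This subunit of type alpha 5 (chromosome 7, 57407672 to 57510059), known for extrasynaptic receptors on CA1 pyramidal dendrites, had 13.13, 12.97 and 12.76 in CA1 dendrites and 10.80, 10.65 and 10.14 in DG dendrites. Its difference was 2.42 ± 0.185 (SE, limma adjusted p = 3.07e-09), and 1.87 under quantile normalization. Between the cell body layers it was 1.31. Gabrd, the delta subunit of granule cell extrasynaptic receptors, had a difference of -0.39 without a call. As deposited 4 further subunits were higher, among them Gabra3 (1.85), and Gabrq (-4.79) was lower. All genes together gave 10.3% higher and 2.29% lower as deposited, and 1.84% higher under all 6 scalings. Those with a mean of at least log2(100) gave 19.7%, 0.699% and 3.41% in the same order. Gabrq was not called under quantile normalization (-2.74, adjusted p = 0.13).

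Ion channel genes included those that shape dendritic integration. Of 46 HCN and potassium channel genes, 23 were higher and 1 lower as deposited, and 11 and 1 under all 6 scalings. Quantile normalization gave 14 higher and 6 lower, and the median was 0.97 as deposited and 0.38 under it. Among genes with a mean of at least log2(100), 19.7% were higher and 0.699% lower as deposited. Under all 6 scalings these shares were 3.41% and 0.675%. Pex5l encodes TRIP8b, an auxiliary subunit of HCN channels. It had 13.58, 14.24 and 14.03 in CA1 dendrites, against 11.97, 12.44 and 11.85 in DG dendrites (difference 1.87 ± 0.199, SE, limma adjusted p = 5.74e-07), and 1.21 under quantile normalization. The groups of values did not overlap. Kcnq3, a subunit of the M-current, differed by 1.75, and Kcnab2, a potassium channel beta subunit, by 1.95. Kcnc4, an A-type potassium channel of the Kv3 family known from mossy fibres, was the 1 lower member (-1.25).

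Of 22 measured sodium and calcium channel genes, 10 were higher and 4 under all 6 scalings, including Scn8a, the channel Nav1.6 (1.25), and Cacnb3, a calcium channel beta subunit (1.29). Calmodulin binding proteins and kinases had 14 of 20 higher and 6 under all 6 scalings. Beside both lists, 19.7% of genes with a mean of at least log2(100) were higher as deposited and 3.41% under all 6 scalings. Camkv, a kinase-like calmodulin binding protein of spines, differed by 1.80, Camk4, a nuclear calcium kinase, by 1.86, and Calm3, a calmodulin gene whose mRNA is known in dendrites, by 1.41. Ppp3ca, a calcineurin catalytic subunit, was called at 1.32 as deposited and not under quantile normalization (0.45, adjusted p = 0.15).

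Activity-regulated genes showed a divided picture. Of 17 immediate early genes, 7 were higher as deposited and 5 under all 6 scalings. None was lower as deposited, where 5 had differences below 0, but 2 were lower under each of the 5 other scalings. The higher shares among genes with a mean of at least log2(100) were 19.7% and 3.41%. Arc (chromosome 15, 74669083 to 74672570), an effector whose mRNA travels into dendrites, had 14.16, 14.98 and 14.06 in CA1 dendrites and 11.20, 12.59 and 11.03 in DG dendrites. The difference was 2.79 ± 0.250 (SE, limma adjusted p = 4.9e-08), and 3.97 between the cell body layers. Fos, the best-known immediate early gene, had a difference of -0.28 without a call, and Egr2, a zinc finger factor, one of -0.80. Egr1 (1.87) and Fosb (1.93) were called as deposited but not under all 6 scalings.

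The 3 members of the Nr4a family of orphan nuclear receptors were each higher under all 6 scalings. Nr4a3 had 13.39, 13.34 and 12.74 in CA1 dendrites and 10.54, 10.60 and 9.66 in DG dendrites (difference 2.89 ± 0.254, SE, limma adjusted p = 3.86e-08). Nr4a2 had 13.15, 12.29 and 11.69 in CA1 dendrites, against 9.93, 10.28 and 8.80 in DG dendrites (difference 2.71). Nr4a1 had 11.25, 11.95 and 10.48 in CA1 dendrites and 9.22, 10.30 and 8.43 in DG dendrites (difference 1.91). The layers did not overlap for any of the 3, and in each the CA1 library of mouse 502 was the lowest of the CA1 libraries and its DG library the lowest of the DG libraries. The library medians of mouse 502 were also the lowest of their groups, at 7.03 in CA1 and 6.86 in DG.

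The Nr4a genes are textbook targets of the cAMP response element binding protein CREB, whose part in their differences was not tested. The 250 bases before their RefSeq start sites (build GRCm38.p6) are shown, 5′ to 3′ on the gene's strand. Capitals mark the short CREB motif, TGACG or its reverse complement CGTCA.
Nr4a1, chr15:101266596-101266845, plus strand: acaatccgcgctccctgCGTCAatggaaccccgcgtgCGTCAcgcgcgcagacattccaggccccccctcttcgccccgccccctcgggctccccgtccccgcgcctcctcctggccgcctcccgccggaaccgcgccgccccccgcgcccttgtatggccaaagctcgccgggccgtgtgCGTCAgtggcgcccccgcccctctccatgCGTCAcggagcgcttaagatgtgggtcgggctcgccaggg
Nr4a2, chr2:57124004-57124253, minus strand: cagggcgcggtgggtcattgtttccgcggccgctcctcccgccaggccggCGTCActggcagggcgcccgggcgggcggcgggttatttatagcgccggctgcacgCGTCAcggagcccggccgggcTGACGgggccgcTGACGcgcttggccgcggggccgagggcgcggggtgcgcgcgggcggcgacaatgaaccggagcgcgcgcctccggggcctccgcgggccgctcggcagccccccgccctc
Nr4a3, chr4:48045055-48045304, plus strand: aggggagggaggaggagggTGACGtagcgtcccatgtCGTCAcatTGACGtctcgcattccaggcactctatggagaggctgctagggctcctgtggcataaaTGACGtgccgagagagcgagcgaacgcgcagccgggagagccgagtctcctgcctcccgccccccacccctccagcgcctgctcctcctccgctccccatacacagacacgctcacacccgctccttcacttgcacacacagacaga
Each window held the short motif 4 times and none held its full palindrome TGACGTCA. Of 32851 RefSeq windows of the same length, 17.8% held the short motif at least once, on either strand. The palindrome, which contains it on both strands, was in 1.55%. Windows with the short motif 4 times were not counted. A match describes letters only and says nothing of binding.

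Receptors of neuromodulators and hormones added single genes rather than whole groups. Of 31 monoamine, acetylcholine and adenosine receptors, 8 were higher and 4 under all 6 scalings. The shares among genes with a mean of at least log2(100) were 19.7% and 3.41%. Htr1a (chromosome 13, 105443639 to 105448122), the serotonin 1A receptor, had 10.76, 10.72 and 10.41 in CA1 dendrites and 7.45, 8.16 and 7.57 in DG dendrites (difference 2.90 ± 0.310, SE, limma adjusted p = 5.93e-07). Chrm3, the muscarinic M3 receptor, differed by 3.22 and Adora1, the adenosine A1 receptor, by 1.32. Of 22 steroid and retinoid genes, 3 were higher and 3 lower as deposited, and 2 and 2 under all 6 scalings. All genes together gave 10.3% higher and 2.29% lower as deposited, and 1.84% and 1.02% under all 6 scalings. Rara, a retinoic acid receptor, was higher by 1.96, whereas the retinoic acid clearing enzyme Cyp26b1 was lower, as above. Crabp2, a retinoic acid binding protein on another list, was listed at 0 in each CA1 library and had 5.01, 6.03 and 2.66 in DG dendrites, with no call under quantile normalization.

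Guidance, adhesion and matrix genes held members of both directions. Of 46 guidance genes, 14 were higher and 2 lower as deposited, 7 and 7 under quantile normalization, and 5 and 1 under all 6 scalings. Of all genes 10.3% were higher and 2.29% lower as deposited, and 1.84% and 1.02% under all 6 scalings. Quantile normalization gave 3.37% higher and 3.38% lower. Among genes with a mean of at least log2(100), 19.7% were higher and 0.699% lower as deposited. Under all 6 scalings these shares were 3.41% and 0.675%. All of these shares also stand beside the adhesion, matrix, growth factor and cadherin lists below. Plxna1, a semaphorin receptor, differed by 2.33, Epha6, an ephrin receptor, by 2.05, Ephb3, another ephrin receptor, by 2.61, and Unc5a, a netrin receptor, by 1.71. Ntng2, the membrane-bound netrin G2, was the lower member that kept its direction under all 6 scalings (-1.29). Of 42 measured synaptic adhesion genes, 15 were higher and 1 lower as deposited, 6 and 5 under quantile normalization (median 0.08), and 4 and 1 under all 6 scalings. Nrxn3 (chromosome 12, 88722876 to 90334935), a presynaptic neurexin, had 14.28, 13.93 and 13.41 in CA1 dendrites and 10.91, 11.92 and 11.52 in DG dendrites (difference 2.42 ± 0.254, SE, limma adjusted p = 4.75e-07). Lrrc4c, the netrin G1 ligand of postsynaptic membranes, differed by 1.47. The lower member was C1ql2, given above. Of 26 matrix genes, 7 were higher and none lower as deposited, 5 and 3 under quantile normalization, and 2 were higher under all 6 scalings. Their median was 0.27 as deposited and -0.22 under quantile normalization. Col25a1, a transmembrane collagen, differed by 2.40 and Hs3st4, a heparan sulfate sulfotransferase, by 2.98. Of 21 tested growth factor genes and their receptors, 5 were higher and none lower as deposited, and 2 higher under all 6 scalings, whereas quantile normalization gave 2 higher and 6 lower, with a median of -0.27. Igf1, an insulin-like growth factor, differed by 2.33. Of 23 measured cadherins, 5 were higher and 2 lower as deposited, 1 and 4 under quantile normalization, and none and 2 under all 6 scalings. The lower ones include Cdhr1 (-3.44), which was not called without mouse 492 (-2.13, adjusted p = 0.16) or without mouse 502 (-3.43, adjusted p = 0.134).

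Presynaptic genes, whose mRNAs can also come from interneurons in the layer, were higher in number as deposited. Of 36, 23 were higher and 1 lower, 10 and 2 under quantile normalization, and 8 and 1 under all 6 scalings. Among genes with a mean of at least log2(100), 19.7% were higher and 0.699% lower as deposited. Under all 6 scalings these shares were 3.41% and 0.675%. Vamp2 (chromosome 11, 69088490 to 69092384), the vesicle SNARE synaptobrevin, had 16.11, 16.25 and 15.72 in CA1 dendrites and 14.21, 14.75 and 13.86 in DG dendrites (difference 1.75 ± 0.187, SE, limma adjusted p = 6.31e-07). Rab3c, a vesicle GTPase, differed by 1.78. Slc17a7, the vesicular glutamate transporter VGLUT1, was higher by 1.24 as deposited, and its call was not held under all 6 scalings. Cplx2, a complexin, was the lower member (-0.57).

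Genes of respiration and protein synthesis gave more calls as deposited than under the other scalings. Of 13 mRNAs of the mitochondrial genome, 10 were higher as deposited, with a median of 0.89. Median centring kept 5 calls, median of ratios 3, equal totals 3, equal totals outside the mitochondrial genome 2 and quantile normalization none, with a median of 0.04. Quantile normalization gives genes of the same rank the same value in each library, which leaves little room for a difference among the most abundant RNAs, and mt-Co1, a cytochrome c oxidase subunit, came out at 0.00 under it. The mRNA of mt-Nd2, a complex I subunit, had 21.97, 21.12 and 20.29 in CA1 dendrites and 19.83, 19.85 and 19.17 in DG dendrites. Its difference of 1.51 was called as deposited and under 4 other scalings, at 0.76 under equal totals, 0.86 under equal totals outside the mitochondrial genome, 1.20 under median centring and 1.08 under median of ratios. Under quantile normalization it was 0.19 (adjusted p = 0.694). Of 75 nuclear respiratory chain and ATP synthase genes, 27 were higher and 1 under all 6 scalings, Cox8a, a subunit of cytochrome c oxidase (1.55). Of genes with a mean of at least log2(100), 19.7% were higher as deposited and 3.41% under all 6 scalings. Of all genes these shares were 10.3% and 1.84%. Of 82 tested cytosolic ribosomal protein genes, 38 were higher as deposited, 18 under median centring, 6 under median of ratios and none under all 6 scalings, with medians of 0.80 as deposited and 0.17 under quantile normalization. Reads of such genes can be shared with pseudogenes, so single members are uncertain. Of 77 mitochondrial ribosomal protein genes 9 were called higher as deposited, and of 33 proteasome genes 3, beside 10.3% of all genes and 19.7% of those with a mean of at least log2(100). None was called under all 6 scalings.

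**Figure D4:**
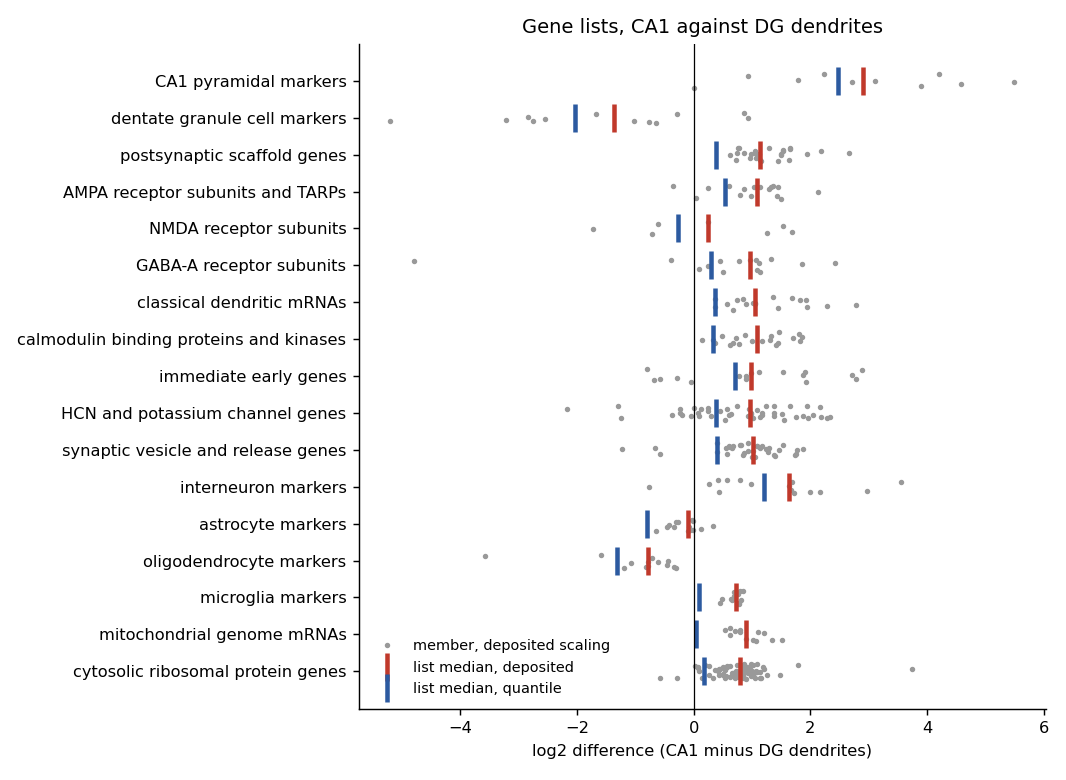
Log2 differences (CA1 minus DG dendrites) of the members of 17 lists, with each member a grey point and the list median drawn as a red mark for the deposited scaling and a blue mark for quantile normalization. The medians of the mitochondrial genome mRNAs are 0.89 and 0.04, whereas those of the CA1 pyramidal markers are 2.91 and 2.47 and those of the oligodendrocyte markers -0.78 and -1.32.

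The cell body layers of the same mice, whose values enter the dendritic tests through the shared spread and not through the difference itself, gave 1788 genes higher in CA1 (7.18%) and 703 lower (2.82%) as deposited. Of the 458 genes higher in CA1 dendrites under all 6 scalings, 443 had a positive difference between cell bodies and 340 were called higher there. Of the 253 lower, 168 had a negative difference between cell bodies, 55 were called lower and 2 were called higher. The median of the 458 was 1.78 in dendrites and 1.25 in cell bodies, and that of the 253 was -4.28 in dendrites and -0.52 in cell bodies. Over the 12584 genes with a mean of at least log2(100), the dendritic and cell body differences had a Pearson r of 0.35 across genes, which share mice and are not independent replicates.

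Whether the difference of CA1 and DG itself differed between compartments was tested as an interaction, dendritic minus cell body difference. It was called for 744 genes (2.99%), 425 positive (1.71%) and 319 negative (1.28%), and for 616 (2.47%) under all 6 scalings. Markers of both neuron types were less far apart in dendrites than in cell bodies. Of 10 CA1 markers, 8 had a negative interaction, with a list median of 2.91 in dendrites and 6.30 in cell bodies. Of 12 granule cell markers, 8 had a positive one, with medians of -1.36 and -5.49. Wfs1 averaged 14.76 in CA1 and 9.02 in DG cell bodies, a difference of 5.75, against 3.11 in dendrites (interaction -2.64 ± 0.515, SE, limma adjusted p = 0.00293). Prox1 averaged 7.87 in CA1 and 15.01 in DG cell bodies, a difference of -7.14, against -1.68 in dendrites (interaction 5.46 ± 0.502, SE, limma adjusted p = 1.36e-07).

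The largest positive interactions were those of genes strong in the granule cell layer and present in both dendritic layers. Dsp (chromosome 13, 38151294 to 38198577), the desmosomal desmoplakin, had 10.81, 10.90 and 5.89 in CA1 dendrites and 12.74, 12.34 and 11.05 in DG dendrites, with cell body means of 3.08 in CA1 and 14.25 in DG (interaction 8.33 ± 1.48, SE, limma adjusted p = 0.00178). Stxbp6, which binds syntaxin, had 11.67, 10.06 and 10.78 in CA1 dendrites and 11.93, 11.28 and 11.20 in DG dendrites, with cell body means of 6.47 in CA1 and 13.75 in DG (interaction 6.64). Ogn, a matrix proteoglycan, averaged 3.47 in CA1 and 10.29 in DG cell bodies, and its dendritic values of 8.63 to 9.05 in CA1 overlapped those of 7.45 to 9.17 in DG (interaction 7.42). Tspan18, Pcp4 and Plekha2 followed with 6.98, 6.47 and 6.43, and in each the CA1 dendrites of mouse 492 had the highest of the 6 dendritic values. C1ql2 had an interaction of 6.17. The CA1 dendritic libraries thus held RNAs that averaged 3.08 to 7.10 in CA1 cell bodies, and, as with the summed granule cell markers, the CA1 library of mouse 492 or 496 was the highest of the CA1 dendrites in each of these genes.

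Negative interactions came in 2 forms. Man1a (chromosome 10, 53904785 to 54076609), a mannosidase of the Golgi known as a CA1 marker, averaged 13.91 in CA1 and 6.95 in DG cell bodies, while dendrites had 10.84, 11.25 and 10.78 in CA1 and 10.02, 10.19 and 9.82 in DG (interaction -6.02 ± 0.340, SE, limma adjusted p = 4.52e-11). Efcab6, a gene with EF-hand domains, averaged 10.70 in CA1 and 2.37 in DG cell bodies, and its dendritic values overlapped (interaction -6.72). A2m (-6.99), Gja4 (-6.36), Cyp26b1 (-6.31) and Coq3 (-5.61), an enzyme of ubiquinone synthesis, had no called difference between cell bodies and were among the genes at or near 0 in CA1 dendrites of mice 492 and 496. Pex5l differed less in dendrites than in cell bodies (interaction -1.90). The reverse was seen for Cnr1 (1.44), Cnih2 (0.97) and Gabra5 (1.11), whose differences were larger in dendrites than in cell bodies. Of these, the interaction of Cnih2 was not called under all 6 scalings.

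**Figure D5:**
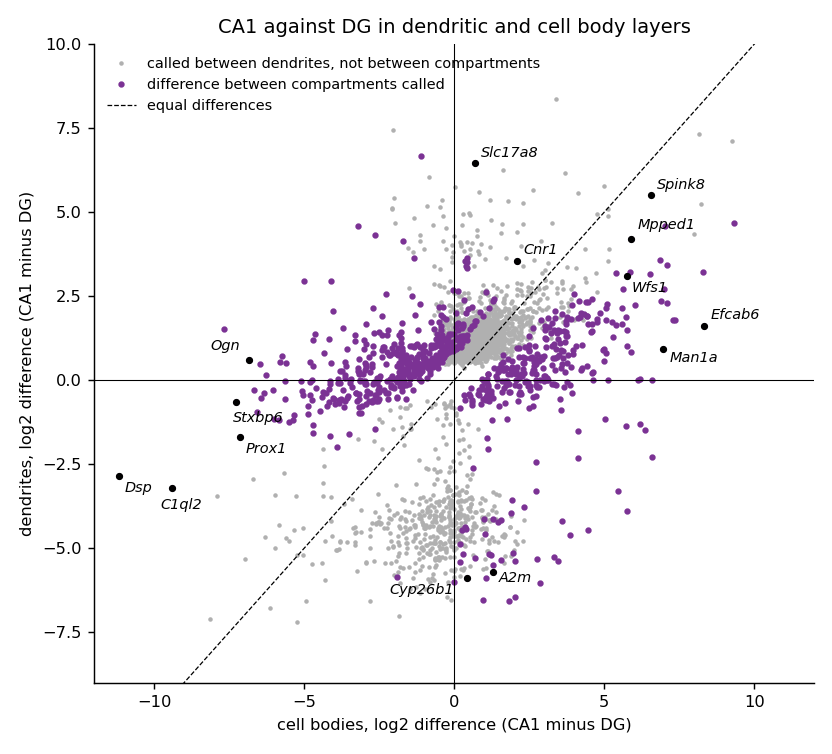
Log2 differences of CA1 minus DG for genes called in either test, with cell bodies on the x axis and dendrites on the y axis, purple where the interaction was called, grey where it was not, and black for genes named. Dsp lies at the far left with a cell body difference of -11.17 and a dendritic one of -2.84, and Man1a at the right with 6.97 and 0.94.

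Transcripts within a gene were compared in the deposited transcript table, to ask whether CA1 and DG dendrites hold different forms of an RNA. Of 10025 genes with 34762 transcripts tested, 590 (5.89%) had unequal change among their transcripts by limma's diffSplice at an adjusted p below 0.05. The leading transcript was annotated in GENCODE M21 as protein coding in 378, as a retained intron in 94 and as a processed transcript in 61. Of the 590 genes, 50 were among the 711 with a call at gene level. Values of single transcripts are estimates that divide shared reads, so they are less certain than gene values.

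Crym encodes mu-crystallin, a thyroid hormone binding protein. Its protein coding transcript had 9.32, 8.91 and 9.79 in CA1 dendrites and 6.92, 7.89 and 7.47 in DG dendrites. The transcript annotated as a retained intron had 0.67, 0.43 and 0.61 in CA1 dendrites and 5.22, 6.63 and 5.27 in DG dendrites. The forms went in opposite directions in each mouse, by 1.92 and -5.13 (gene adjusted p = 6.71e-05 in limma).

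Phactr1, a regulator of protein phosphatase 1 and actin, showed a swap between protein coding forms. The first had 9.67, 3.64 and 6.61 in CA1 dendrites and 11.14, 11.49 and 10.66 in DG dendrites. The second had 11.22, 10.96 and 11.50 in CA1 dendrites and 8.41, 8.95 and 8.88 in DG dendrites. The most abundant form differed by 0.57. In Srr, the serine racemase gene, a retained intron form had 1.85, 1.27 and 1.36 in CA1 dendrites and 6.58, 7.69 and 7.20 in DG dendrites, whereas a protein coding form differed by 0.06. A chromatin remodelling subunit, Smarcc2, and a zinc finger gene, Zfp574, each had a protein coding transcript lower in CA1 dendrites (-2.99 and -4.18) while others of the gene differed by 0.80 to 1.35 and by 0.23 to 1.25. Foxj3, a forkhead factor, had a retained intron form lower by -4.52 and protein coding forms at 1.78 and 0.82. Without mouse 496 there were 196 such genes, of which 96 were among the 590. Without mouse 502 there were 814, of which 360 were, and without mouse 492 there were 453, of which 204 were.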

How the data were processed

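Total RNA of laser-captured layers was sequenced by the study. Among the tools in the submitters' processing notes are Salmon 0.9.1, STAR 2.5.1b and featureCounts 1.5.1 with the mm10 build, with no step assigned to each. The deposited gene and transcript values are, per the file headers, log2 values of Salmon estimates after a median normalization by the authors. On the values themselves, 1 had been added to each estimate before the log2, a constant then moved each library as a whole, and zeros were left at 0. They are not read counts, so no counting interval applies. With the smallest nonzero value of a library taken as that constant, reads were estimated for the CA1 dendritic libraries. They were 53.0, 67.4 and 47.6 M for mice 492, 496 and 502.

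Genes at log2(10) or more in at least 3 of 24 libraries were tested (24911 of 49341). The fit to the deposited log2 values used limma 3.58.1 with statmod 1.5.0 under R 4.3.3, with 8 groups, mouse as a block, a trended and robust spread and 14 residual degrees of freedom. The p-values are two-sided, with Benjamini-Hochberg adjustment over the genes tested. Interactions used the same fit, and transcripts used diffSplice with Simes adjustment. Data were simulated for the dendritic comparison over 24911 genes. Of genes raised by 2, 42 of 50 were recovered, and of those raised by 1, 11 of 50. Of genes lowered by 2, 30 of 50 were recovered, and of those lowered by 1, 7 of 50. There were 3 false calls. How closely the simulated libraries match the library shifts and zeros of the deposited values was not tested. These counts therefore give no error rate for the calls reported here.

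The mouse block comes from the labels: libraries of a number share an animal. Deviations from group means of CA1 and DG dendrites of the same mouse correlated at 0.007, 0.039 and 0.063 over genes.

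The comparison, the 39 gene lists and the rule for naming genes were chosen with earlier results of these data known. Genes named are the 12 largest differences each way among genes with the same call under all 6 scalings, the same direction in each mouse, a group mean of log2(100) or more where higher, and names that are not those of predicted genes or clones. Up to 4 called genes with the smallest adjusted p per list, the 6 largest interactions each way, 6 transcript genes, and Wfs1, Mpped1, Prox1, C1ql2 and Calb1 were added. Other list members with values were chosen after these were seen, some selected genes enter only the counts, and some genes are not reported here. A microarray table of 12 columns and 4 repeat libraries without a column were not used here.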

Additional observations from a re-analysis of the deposited data

Results flagged for a closer look

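The difference between CA1 and DG itself differed between dendrites and cell bodies, by limma's interaction test at an adjusted p below 0.05, in 744 genes, and in 45 of the genes selected for naming. Values here are dendritic minus cell body log2 differences, each difference being CA1 minus DG. Of the genes given here, the interactions of Pou3f1, Cnih2, Cacnb3, Cdh8 and Rpl3 were not called under all 6 scalings, and those of Pou3f1 (adjusted p = 0.0597) and Cacnb3 (adjusted p = 0.0969) not under quantile normalization. No explanation was tested.

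Neuronal markers were closer to each other between dendritic layers than between cell body layers. Negative values belonged to the CA1 genes Mpped1 (-1.68), Pou3f1 (-2.44), Wfs1 (-2.64) and Man1a (-6.02). Fxyd7, a regulator of the sodium pump, had -2.23 and Cpne7, a copine listed as a CA3 marker, had -3.38. Positive values belonged to the granule cell genes Prox1 (5.46), C1ql2 (6.17), Dsp (8.33), Stxbp6 (6.64) and Calb1 (2.62). Ogn (7.42), Tspan18 (6.98), Pcp4 (6.47), the calmodulin binding peptide, and Plekha2 (6.43) followed.

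Among receptors and channels, values were negative for Pex5l (-1.90), Chrm3 (-2.64), Gabra3 (-2.30) and Neto2 (-2.22), an auxiliary subunit of kainate receptors. Neto1, its relative, went the other way (2.43), with differences of 1.02 in dendrites and -1.41 in cell bodies. Values were positive for Cnr1 (1.44), Cnih2 (0.97), Gabra5 (1.11), Cacnb3 (0.89) and Unc5a (1.57). Vamp2 had 1.05 and Rab3c had -1.10.

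Of genes with a role in signalling and gene regulation, Nr4a1 had -2.53, Rara -2.35 and Pde1a, a calmodulin-dependent phosphodiesterase, -2.78. Among adhesion and matrix genes, Pcdh10, a protocadherin, had -1.19, Hapln4, a link protein of perineuronal nets, -1.84, Cdh8, a cadherin, 1.66, and Col25a1 2.07. Nnat, the imprinted gene neuronatin, had 1.93. The ribosomal protein genes Rpl13a and Rpl3 had 1.67 and 1.06.

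Slc17a8 had 5.76, with cell body means of 5.69 in CA1 and 5.00 in DG. Negative values of genes at or near 0 in CA1 dendrites of mice 492 and 496 were those of A2m (-6.99), Gja4 (-6.36), Cyp26b1 (-6.31), Tap1 (-5.48) and Coq3 (-5.61). Efcab6 had -6.72 and Aqp4 -1.23.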

How the results depend on the processing

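The count of 3143 genes that differed between dendrites became 1683 under quantile normalization, 2017 under median of ratios and 1489 with the 12 dendritic libraries alone. The 6 libraries of the comparison alone gave 274, and 38 with quantile normalization (the combination was added after seeing the data). With mouse 502 as the only CA1 library it was 650, or 718 with quantile normalization (added after seeing the data), and with mouse 496 as the only DG library 535, or 558 with quantile normalization. In these fits the lone library is assumed to vary like the other groups. Leaving out a mouse gave 1281 to 2564 genes, and 1311, 706 and 818 under quantile normalization without mouse 492, 496 and 502. The 744 interactions became 1141 under quantile normalization and 258 to 400 without a mouse, and the 590 transcript genes 196 to 814.

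Without the mouse block there were 2901, 678 and 587 such genes, and of the genes selected for naming the block changed the call of Psmd2 (adjusted p = 0.0633 without it) and no other.

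Over 133 such genes, 2128 values under the alternatives stayed on the same side of the threshold, 917 kept direction and lost the call, and 12 reversed. With mouse 502 as the only CA1 library Trp73 turned to 0.13, and to 0.06 with quantile normalization. Under equal totals Psmd2 turned to -0.12, and outside the mitochondrial genome to -0.02. Under quantile normalization without mouse 502 Csf1r turned to -0.07, Grik5 to -0.09 and Rpl3 to -0.01, without mouse 496 Psmd2 to -0.09 and Nr3c2 to -0.12, and without mouse 492 Sparc to -0.11. With mouse 496 as the only DG library and quantile normalization, Sparc had -0.08 and mt-Nd1 -0.02. The cause was not tested. Of the 253 genes lower under all 6 scalings, 109 were listed at 0 in CA1 of both mouse 492 and mouse 496. Those libraries had 53.0 and 67.4 M estimated reads, and CA1 of mouse 502 had 47.6 M. The part of read depth in these zeros was not tested.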

Other observations

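Cyclic nucleotide enzymes and markers of cells of neighbouring layers were also measured. Of 18 adenylyl cyclase and phosphodiesterase genes, 9 were higher in CA1 dendrites and 2 under all 6 scalings. The shares among genes with a mean of at least log2(100) were 19.7% and 3.41%. Pde2a, a phosphodiesterase stimulated by cyclic GMP, had 14.01, 14.59 and 14.48 in CA1 dendrites and 12.32, 12.83 and 12.28 in DG dendrites (difference 1.88 ± 0.192, SE, limma adjusted p = 3.33e-07). Pde1a differed by 1.68. Of 8 listed CA3 markers, Cpne7 was called under all 6 scalings, with 11.14, 9.92 and 10.81 in CA1 dendrites and 6.59, 7.99 and 7.83 in DG dendrites (difference 3.15), and Nnat as deposited (1.48). Of all genes 10.3% were higher as deposited, and 1.84% under all 6 scalings. Cpne7 also averaged 12.05 in CA1 and 5.52 in DG cell bodies, so its RNA was high in the CA1 cell body layer too.

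Cajal-Retzius cells, early-born neurons that persist in the molecular layer, are marked by 10 listed genes. Of these, 9 had differences below 0 as deposited, where the median difference of all genes was 0.14. Of all genes 2.29% were called lower as deposited, and of this list 1 was, Trp73, the p73 transcription factor gene. It had 1.53, 2.75 and 8.03 in CA1 dendrites and 7.40, 8.79 and 7.29 in DG dendrites. The CA1 library of mouse 502 stood among the DG libraries, and quantile normalization gave no call (-2.30, adjusted p = 0.179). Reln, the reelin gene, had a difference of -0.67 without a call. The list's sums were 12.90, 13.91 and 12.95 in CA1 of mice 492, 496 and 502, against 13.34, 13.93 and 13.51 in DG. The CA1 sum was the lower in each mouse, but the groups overlapped. Listed genes at 0 numbered 2, 1 and 1 in CA1 and 1, 1 and 0 in DG, in the same order. Whether CA1 dendrites held fewer of these cells was not tested.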
